A study of Mus musculus with 2 samples.

Results

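The subject is the CD81- FBs of the mouse colon, the largest of the 3 fibroblast classes that the study's authors annotated in that tissue. The members are the 3631 cells to which the authors' annotation gives this label, out of 6018 colon cells and 15377 cells in the 2 libraries of the study. The colon library came from healthy, untreated mouse tissue. Epithelium was stripped from the tissue, which was then digested with collagenase and dispase for 60 minutes, and live cells without CD45 (immune) and CD326 (EpCAM, epithelial) were sorted. About 16000 cells were loaded on a 10x Chromium device with a 3' kit, and the small intestinal library differed in a digestion of 45 minutes. The labels used here give neither the number nor the strain, sex or age of the animals. The colon types set beside the CD81- FBs were 875 CD81+ trophocytes, 1105 PDGFRa-hi SEMFs (subepithelial myofibroblasts), 217 LECs (lymphatic endothelial cells), 53 BECs (blood endothelial cells) and 125 SMCs (smooth muscle cells). Another 12 cells with pericyte or proliferating labels were too few to compare.

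Fibroblasts of the gut lamina propria build the matrix around crypts and vessels and supply the signals that keep epithelial stem cells at the crypt base and let their progeny mature. Trophocytes lie beneath the crypts and are known for Grem1, which blocks BMP signals. SEMFs line the epithelium and are known for BMP ligands. Fibroblasts with low Pdgfra and little Cd81 fill the lamina propria between them, and in the mouse gut they are known for Adamdec1, a secreted metalloprotease-like protein of lamina propria fibroblasts.

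Each level below is CPM, the UMIs of a gene per 1000000 UMIs summed over all cells of a type, where a UMI marks 1 captured molecule. Cells are not replicates and there was 1 library per tissue, so no test was possible and no p-value is given. Intervals are exact 95% intervals that cover counting error only, and a ratio was counted as higher or lower when it was at least 1 in size on the log2 scale. The type labels come from the authors' grouping of these same cells, so differences between types describe the labelled cells and are not an independent check of them.

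The CD81- FBs held 24707386 UMIs, with a median of 6697 per cell and 2475 genes per cell. The medians were 7186 UMIs in trophocytes, 6345 in SEMFs and 4545 in LECs. The CD81- FBs made up 60.3% of the colon cells (exact binomial interval 59.1 to 61.6). Mitochondrial transcripts made up a median of 2.95% of a cell's UMIs, against 1.80% in trophocytes and 3.48% in SEMFs. The 2 libraries shared 21 cell barcodes, 11 of them from colon CD81- FBs. Fibroblast transcripts were also counted in the LECs, where Dcn stood at 10.1%, Gsn at 10.7%, Col3a1 at 10.6% and Adamdec1 at 9.31% of their CD81- FB levels. At 3000 UMIs per cell, Adamdec1 was found in 37 of 200 LECs, with a median of 1 UMI in those cells and a highest count of 32. Free RNA, doublets and mislabelled cells cannot be told apart here.

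The gene behind the name was low, and the fibroblast genes were present. Cd81, a tetraspanin, was at 38.0 CPM in CD81- FBs (35.6 to 40.5), 585 CPM in trophocytes and 9.14 CPM in SEMFs. It was highest in BECs, at 912 CPM. A Cd81 UMI was found in 13.7% of the CD81- FBs, and how much of this was carried over from other cells was not tested. When each cell was thinned to 3000 UMIs, which left out 168 CD81- FBs and 58 trophocytes, the shares were 8.11% and 81.2%. In LECs thinned in the same way Cd81 was found in 29.0% of 200 cells. All 10 pan-fibroblast genes were listed at 20 CPM or more. Pdgfra, the receptor in the name of the SEMFs, was at 257 CPM in CD81- FBs, 330 CPM in trophocytes and 1137 CPM in SEMFs. Its level set SEMFs apart but was similar in CD81- FBs and trophocytes.

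The 7 markers of the type were Adamdec1, Hapln1, Edil3, Stmn2, Cxcl13, Frzb and Cd36, and 5 of them were higher in CD81- FBs than in any other compared type. Adamdec1 was at 5608 CPM in CD81- FBs (5578 to 5637) and at 4542 CPM in SEMFs, so it marked both classes, and at 189 CPM in trophocytes. Its log2 ratio was 4.89 (4.81 to 4.97) against trophocytes and 0.30 (0.29 to 0.32) against SEMFs. When 6% of the colon cells, those scored as most doublet-like, were left out, the ratio to trophocytes was 5.81 for Adamdec1 and 5.42 for Edil3 (4.69 with them). Edil3, a secreted integrin ligand of the matrix, was at 559 CPM in CD81- FBs, 21.7 CPM in trophocytes, 6.45 CPM in SEMFs and 49.8 CPM in LECs. Hapln1, which links hyaluronan to proteoglycans, was at 67.2 CPM, against 1.73 CPM in trophocytes, 1.48 CPM in SEMFs and 18.1 CPM in SMCs. Frzb, a secreted Wnt inhibitor, was at 30.4 CPM, against 2.51 CPM in trophocytes and 1.21 CPM in SEMFs. Cxcl13, the chemokine that draws B cells, was at 788 CPM in CD81- FBs, 91.8 CPM in SEMFs and 41.5 CPM in trophocytes.

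The remaining pair of markers separated the type from other fibroblasts but not from endothelium. Stmn2, a microtubule-binding protein best known from neurons, was at 182 CPM in CD81- FBs, 14.8 CPM in trophocytes and 2.02 CPM in SEMFs, but at 363 CPM in LECs. Cd36, a fatty acid transporter, was at 60.9 CPM, against 0.942 CPM in trophocytes and 12.4 CPM in SEMFs, and at 441 CPM in BECs. These 7 genes were also unequal in how many cells carried them. At 3000 UMIs per cell, Adamdec1 was found in 91.4% of 3463 CD81- FBs, Edil3 in 59.9%, Cxcl13 in 25.4%, Stmn2 in 22%, Hapln1 in 13.7%, Cd36 in 8.40% and Frzb in 8.17%. Without thinning the shares were 95.5%, 74.1%, 31.9%, 28%, 22.9%, 12.3% and 16.1%. In LECs at the same thinned depth, the shares were 18.5% for Adamdec1, 5.50% for Edil3 and for Cxcl13, 3.5% for Hapln1 and 3.0% for Cd36. Frzb was found in 0 of 200 LECs, which allows a share of cells with a UMI at this depth of up to 1.83%, and in 0.922% of LECs without thinning. Stmn2 was found in 59.5% of the LECs.

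**Figure D1:**
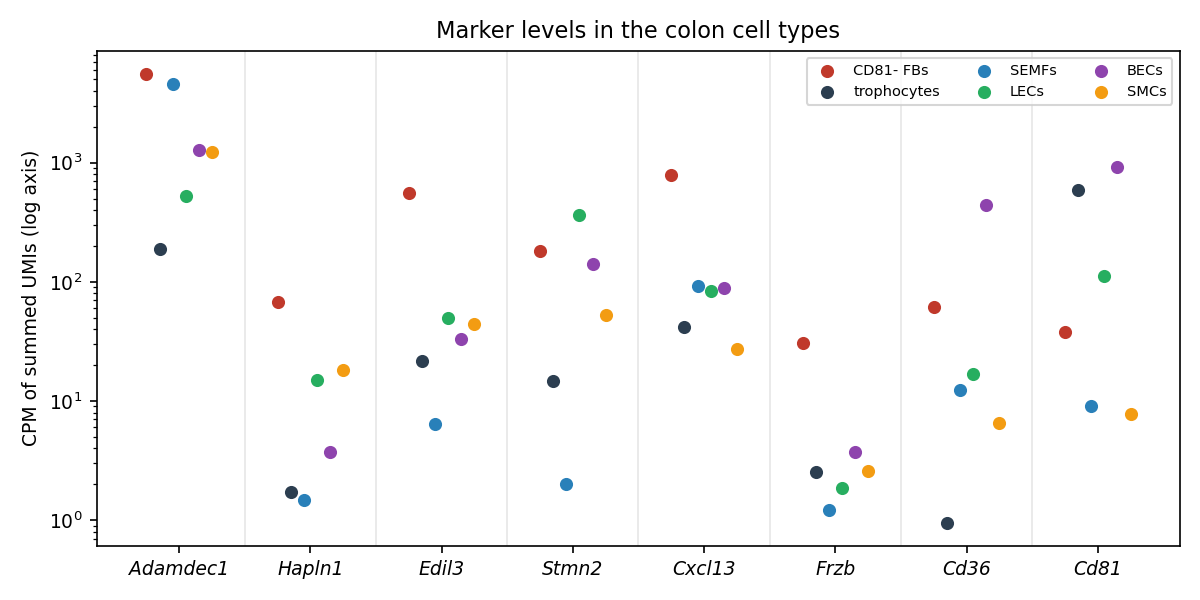
CPM of summed UMIs (log axis) for the 7 markers and Cd81 in the 6 compared colon types, 1 point per type, with exact Poisson intervals drawn on the CD81- FBs that are hidden behind the points. Edil3, Cxcl13, Hapln1 and Frzb stand clear of every other type, Adamdec1 is shared with SEMFs at 4542 CPM, and Stmn2 and Cd36 are higher in LECs (363 CPM) and BECs (441 CPM).

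Cxcl13 and Hapln1 were among the markers with an entry in the RefSeq promoter table of mouse build GRCm38.p6. Frzb, another marker, also had an entry but is not shown here. The 250 bases before the annotated starts of Cxcl13 and Hapln1 set the most variable gene of the type beside a gene of few cells. Both lie on the plus strand, Cxcl13 at chr5:95956689-95956938 and Hapln1 at chr13:89540386-89540635. Capitals mark TATAAA or CAGCTG, searched on both strands together with TGTTTAC.
Cxcl13: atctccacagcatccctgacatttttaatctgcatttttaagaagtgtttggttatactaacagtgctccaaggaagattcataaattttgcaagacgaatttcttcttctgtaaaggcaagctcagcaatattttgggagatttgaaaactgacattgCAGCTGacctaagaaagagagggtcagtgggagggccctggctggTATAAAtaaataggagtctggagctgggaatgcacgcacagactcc
Hapln1: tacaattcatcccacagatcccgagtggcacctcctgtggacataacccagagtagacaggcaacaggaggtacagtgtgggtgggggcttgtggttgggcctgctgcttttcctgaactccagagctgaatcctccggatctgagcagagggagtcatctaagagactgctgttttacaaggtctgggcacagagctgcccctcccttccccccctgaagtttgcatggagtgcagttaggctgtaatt
In Cxcl13, TATAAA begins 46 bases and CAGCTG 91 bases before the start, and the letters of the 3 motifs were not found in the Hapln1 window. TATAAA was present in 12.4%, CAGCTG in 13.0% and TGTTTAC in 3.17% of 32851 windows of this length. Of the 15 genes named next, 12 had an entry. TATAAA was present for 1 of the 12 (Cxcl13), CAGCTG for 3 (Cxcl13, Frzb and Rad51b) and TGTTTAC for 0.

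Of 13879 genes with at least 30 UMIs in the pair of types, 145 (1.04%) were at least 2-fold higher in CD81- FBs than in the highest other type. The 15 genes ranked first, after 10 CPM was added to each level, were Edil3, Cxcl13, Frmpd4, Tnfsf13b, Tafa1, Gask1b, Serpina3n, Sfrp2, Prr16, Frzb, Hapln1, Rad51b, Cxcl16, Myo16 and 4930467D21Rik. Edil3 had the largest ratio to the next type, 11.2-fold over LECs, followed by Cxcl13 at 8.57-fold over SEMFs and Frzb at 8.20-fold over BECs, where Frzb had a wide interval (log2 0.55 to 8.34). The log2 ratio of Cxcl13 to SEMFs was 3.1 over all cells, 1.93 among cells with only Xist UMIs and 3.94 among cells with only Y-linked UMIs. The last of the 15 was 3.63-fold above SMCs. The gene just outside, Adam23, was 2.64-fold above SMCs. Tnfsf13b, which encodes the B cell survival factor BAFF, was at 167 CPM in CD81- FBs and at most 38.9 CPM in the other types. Cxcl16, a chemokine for T cells, was at 112 CPM, with 36.2 CPM in SEMFs as the next level. Sfrp2, a Wnt inhibitor, was at 42.7 CPM, against 5.97 CPM in trophocytes and 0.672 CPM in SEMFs.

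The other genes of the group had different roles. Serpina3n, a protease inhibitor with close paralogs that 3' counting may not separate, was at 695 CPM, with 215 CPM in BECs as the next level. Tafa1, a secreted protein best known from brain, was at 82.8 CPM in CD81- FBs, 0.942 CPM in trophocytes and 2.15 CPM in SEMFs. Frmpd4, a synaptic scaffold protein, was at 270 CPM, against 16.0 CPM in trophocytes and 53.1 CPM in SMCs. Rad51b, a DNA repair gene, was the most abundant of the 15, at 1169 CPM, against 429 CPM in SEMFs and 67.2 CPM in trophocytes. For 4930467D21Rik and Myo16, an unconventional myosin, BECs held 0 UMIs of 269665, which at a floor of 3 counts allows up to 11.1 CPM.

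**Figure D2:**
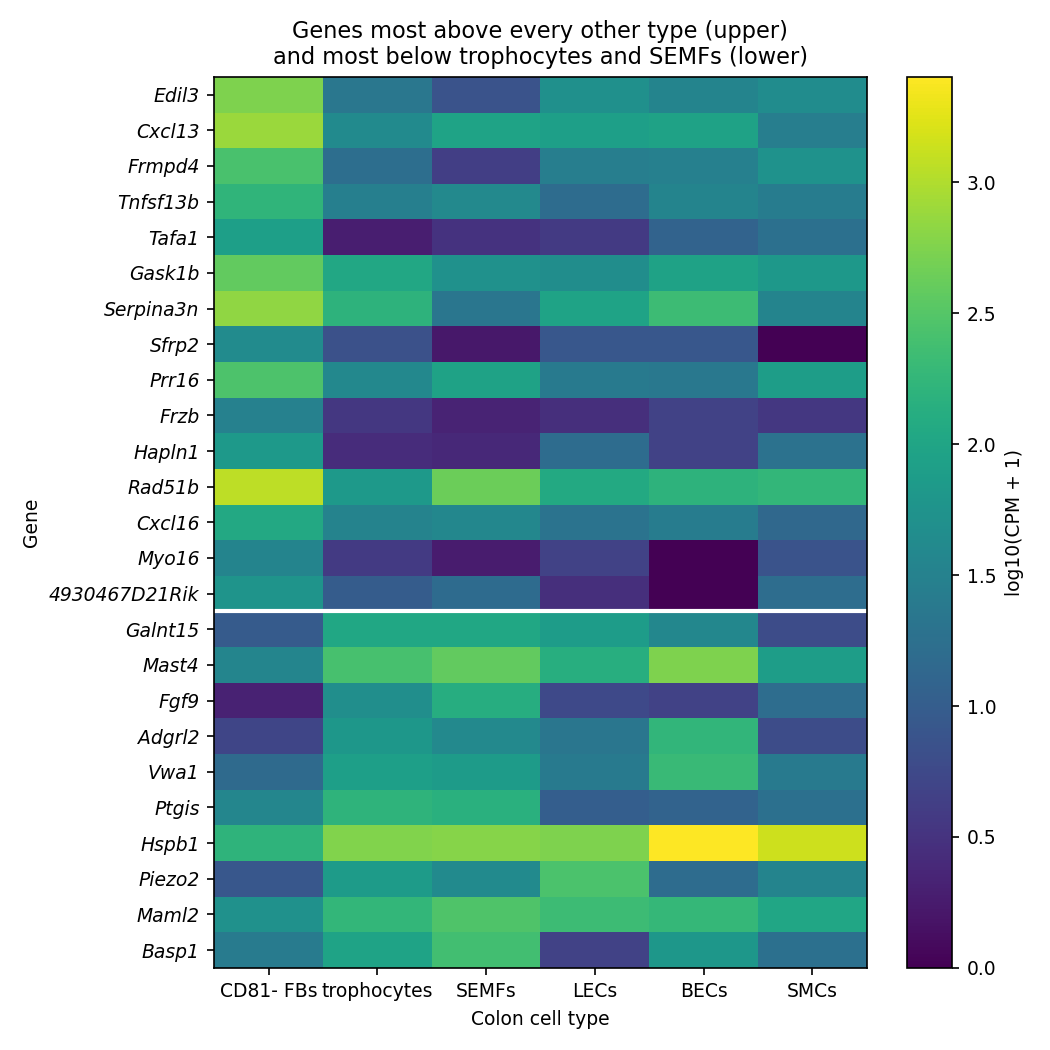
Levels as log10(CPM + 1), by colour, of the 15 genes highest in CD81- FBs against every other type (above the white line) and the 10 genes lowest against both trophocytes and SEMFs (below it), with 1 column per colon type. The upper genes are brightest in the first column, for example Rad51b at 1169 CPM, and of the lower genes Hspb1 is brightest in BECs at 2529 CPM.

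Against trophocytes, 1584 of 13671 genes (11.6%) were higher and 825 (6.03%) lower in CD81- FBs, and against SEMFs 1347 of 13743 (9.8%) were higher and 988 (7.19%) lower. By median-of-ratios scaling the typical gene lay at 0.03 and -0.13 on the log2 scale in these comparisons. In both comparisons at once, 417 of 13464 genes (3.1%) were higher and 119 (0.884%) lower. The 10 genes lowest against both were Galnt15, Mast4, Fgf9, Adgrl2, Vwa1, Ptgis, Hspb1, Piezo2, Maml2 and Basp1. Fgf9, a growth factor, had 27 UMIs in all CD81- FBs, or 1.09 CPM, against 46.3 CPM in trophocytes and 132 CPM in SEMFs. Piezo2, a force-gated ion channel, was at 7.37 CPM, against 72.9 and 41.8 CPM. Ptgis, which makes prostacyclin, was at 35.4 CPM, against 161 and 146 CPM. Hspb1, a small heat shock protein, was at 164 CPM, against 579 and 617 CPM. Maml2, a Notch coactivator, was at 52.5 CPM, against 176 and 293 CPM. For Adgrl2, an adhesion receptor, BECs held the highest level, at 171 CPM against 4.21 CPM in CD81- FBs.

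The counts of the lists below stand beside shares over all genes of 11.6% higher and 6.03% lower than in trophocytes. Against SEMFs these shares were 9.8% and 7.19%, and against both classes at once 3.1% and 0.884%. A list with counts near these shares says little about its family. Hapln1, Edil3, Stmn2, Cxcl13, Frzb and Cd36 had been chosen as markers of the type. They are counted again in the lists below, where their being higher is no separate result. Of the 9 Wnt and R-spondin genes, 3 were higher and 2 lower than in trophocytes, and 6 were higher and 1 lower than in SEMFs. The median log2 ratios of the list were 0.04 and 2.83, where all genes tested had medians of 0.12 and -0.06. Wnt2b was the member above both fibroblast classes, at 37.9 CPM against 14.4 CPM in trophocytes and 3.63 CPM in SEMFs. Wnt4 was the most abundant member, at 208 CPM. It was nearly level with SEMFs (190 CPM) and far above trophocytes (5.97 CPM, log2 ratio 5.13, 4.67 to 5.63). Rspo3, an amplifier of Wnt signals, was at 60.4 CPM in CD81- FBs, 58.6 CPM in trophocytes and 2.42 CPM in SEMFs. Wnt5b was at 80.0 CPM and Wnt5a at 29.7 CPM, against 421 CPM for Wnt5a in SEMFs.

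Secreted Wnt inhibitors stood beside these ligands. Of the 6 genes tested against both classes, Frzb, Sfrp1 and Sfrp2 were higher than in both and 0 were lower than in both. Sfrp1 was the most abundant, at 911 CPM in CD81- FBs, 395 CPM in trophocytes and 24.7 CPM in SEMFs. Dkk3 was at 210 CPM, between trophocytes (91.6 CPM) and SEMFs (327 CPM).

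Of 8 BMP ligand genes, 3 were higher and 1 lower than in trophocytes. Of the 7 tested against SEMFs, 0 were higher and 4 lower. Bmp4 was at 719 CPM in CD81- FBs, 241 CPM in trophocytes and 838 CPM in SEMFs. Bmp5 was at 276 CPM, 14.3 CPM and 1215 CPM in the same order. The differences in log2 ratio were 4.27 (3.97 to 4.59) to trophocytes and -2.14 (-2.18 to -2.09) to SEMFs. Of the 8 BMP antagonists, 0 were higher and 4 lower than in trophocytes, and 3 were higher and 3 lower than in SEMFs. Against both classes at once, 0 were higher and 2 lower, where the share of lower genes over all genes was 0.884%. Grem1 was at 336 CPM in CD81- FBs, 573 CPM in trophocytes and 4.71 CPM in SEMFs, so the antagonist known for trophocytes was also carried by CD81- FBs.

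Among growth factors, 2 of 19 genes tested were higher than in both classes and 1, Fgf9, was lower. Fgf10, a ligand of Fgfr2 on epithelium, was at 146 CPM, against 11.8 CPM in trophocytes and 63.1 CPM in SEMFs. Hgf, the ligand of the Met receptor, was at 69.7 CPM, against 11.6 and 26.2 CPM. Igf1 was at 108 CPM and Ereg, a ligand of the EGF receptor, at 85.9 CPM. Of the 5 IGF-binding protein genes, Igfbp3 and Igfbp5 were higher than in both. Igfbp3 was at 1749 CPM in CD81- FBs, 84.0 CPM in trophocytes and 325 CPM in SEMFs. Igfbp5 was at 820 CPM, 167 CPM and 179 CPM, but at 3434 CPM in LECs. Igfbp6 went the other way against trophocytes, at 364 CPM and 1396 CPM.

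Chemokines were mixed. Of 12 tested, Cxcl13, Cxcl16 and Ccl8 were higher than in both classes and 0 were lower than in both. Ccl8, a chemokine for monocytes and lymphocytes, was at 76.6 CPM, against 7.85 CPM in trophocytes and 8.74 CPM in SEMFs, and at 55.6 CPM in BECs. Cxcl12, which retains CXCR4-bearing cells, was the most abundant, at 1671 CPM in CD81- FBs, 351 CPM in trophocytes and 2412 CPM in SEMFs. Ccl11, the eosinophil chemokine eotaxin, was at 514 CPM, 470 CPM and 17.5 CPM. Of the 11 cytokine genes, Tnfsf13b was higher than in both classes. Csf1 and Kitl, growth factors for macrophages and mast cells, were at 167 CPM and 162 CPM.

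Of 11 complement genes tested, 8 were higher and 0 lower than in SEMFs, whereas 2 were higher and 4 lower than in trophocytes. C4b was at 451 CPM in CD81- FBs, 206 CPM in trophocytes and 15.2 CPM in SEMFs. C3, the central complement protein, was at 158 CPM, 1280 CPM and 5.65 CPM. Of the 8 retinoid genes tested, Aldh1a3, which makes retinoic acid, was higher than in both, at 111 CPM against 42.1 and 2.02 CPM.

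**Figure D3:**
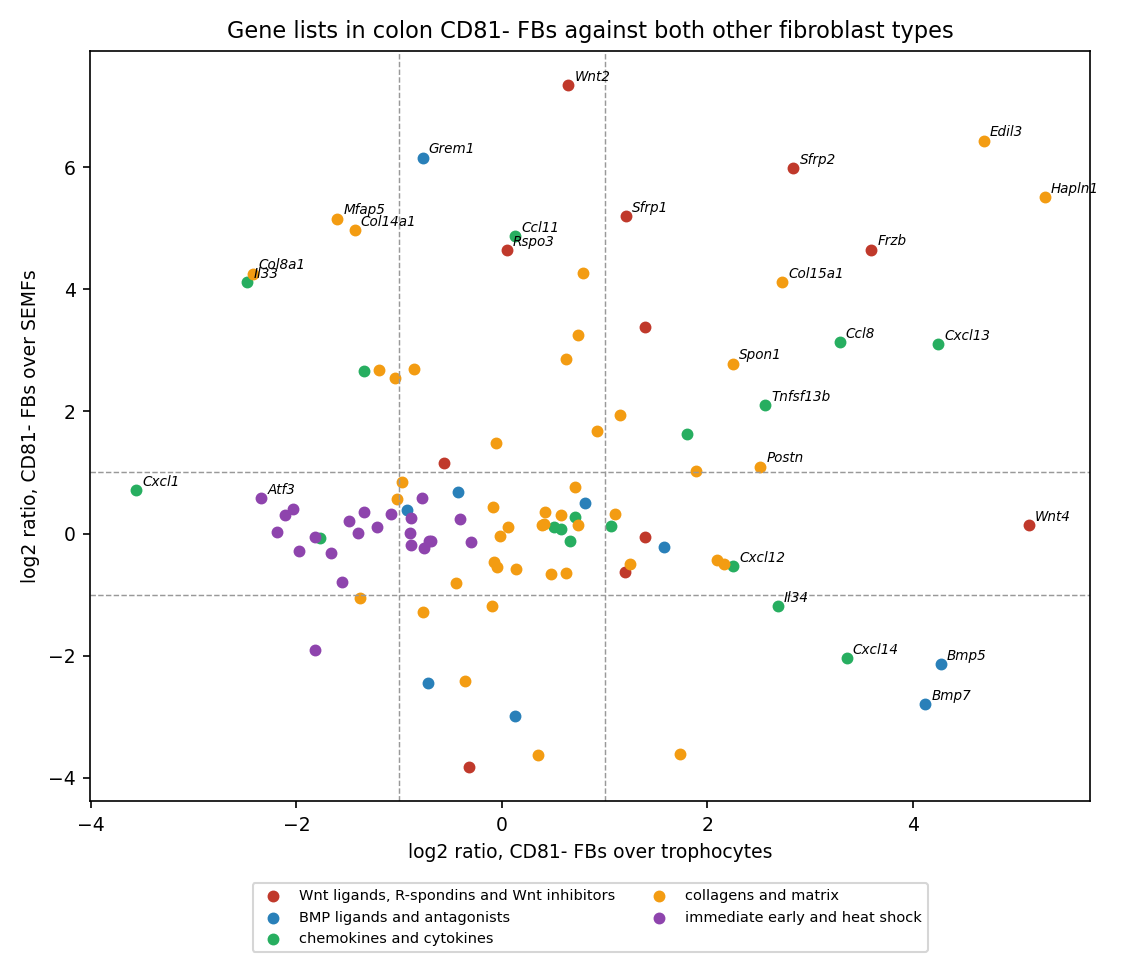
Log2 ratio of CD81- FBs to trophocytes (horizontal) and to SEMFs (vertical) for listed genes at 20 CPM or more in CD81- FBs, coloured by list, with dashed lines at 1 and -1. The limit leaves out genes low in CD81- FBs, among them genes below both other classes. Edil3 and Hapln1 lie far up and right, Bmp5 lies right and below (4.27 and -2.14), and the immediate early and heat shock genes lie left of 0.

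Of 29 proteoglycan and matrix genes tested, Vcan, Hapln1, Edil3, Postn and Spon1 were higher than in both classes and 1 was lower. Vcan, the hyaluronan-binding proteoglycan versican, was at 404 CPM, against 183 CPM in trophocytes and 105 CPM in SEMFs. Postn, a matrix protein that binds collagen, was at 1666 CPM, against 292 and 779 CPM, and at 2269 CPM in SMCs. Spon1 was at 188 CPM in CD81- FBs and 243 CPM in SMCs. Dcn, the small proteoglycan decorin, was the most abundant matrix gene, at 8400 CPM, but was at 19280 CPM in trophocytes.

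Of the 18 collagen genes, Col15a1 and Col18a1 were higher than in both classes and Col6a3 was lower. Col15a1, a basement membrane zone collagen, was at 491 CPM, against 74.0 CPM in trophocytes and 28.2 CPM in SEMFs, and at 423 CPM in BECs. Col6a3 was at 303 CPM, against 787 and 629 CPM. Col1a1, a main fibrillar collagen gene, was close to level, at 1536 CPM in CD81- FBs, 1478 CPM in trophocytes and 1421 CPM in SEMFs. Among 18 proteases and inhibitors, Mmp11 (70.0 CPM) and Adam23 (277 CPM) were higher than in both. For Adam23, a membrane protein that binds integrins, trophocytes held 19.5 CPM and SEMFs 35.8 CPM.

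Neural and adhesion genes were tested as 25 genes against both classes, of which 5 were higher and 1 lower than in both. Stmn2, Adam23 and Nlgn1 were those at 20 CPM or more. Nlgn1, a synaptic adhesion protein, was at 142 CPM, against 67.8 CPM in trophocytes and 2.02 CPM in SEMFs. Robo2, a receptor of Slit proteins, was at 635 CPM, against 163 and 459 CPM. Of 16 lipid genes, Cd36, Pparg and Apoe were higher than in both and 3 lower, among them Ptgs2 and Ptgis. Pparg, a nuclear receptor that drives fat storage, was at 63.2 CPM, against 25.3 and 3.77 CPM. Apoe, a lipid carrier, was at 597 CPM, against 206 and 48.0 CPM. Ptgs2, the inducible cyclooxygenase, was at 55.5 CPM, against 138 and 150 CPM.

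Of 22 transcription factor genes tested against both classes, Tcf21, Nr2f1 and Zeb2 were higher and Zeb1 was lower. Tcf21, a mesenchymal bHLH factor, was at 1240 CPM in CD81- FBs (1227 to 1254), 226 CPM in trophocytes, 471 CPM in SEMFs and 729 CPM in SMCs. The related repressors Zeb2 and Zeb1 went in opposite directions. Zeb2 was at 997 CPM, against 459 CPM in trophocytes and 113 CPM in SEMFs. Zeb1 was at 122 CPM, against 340 and 388 CPM. Of 23 receptors, Fgfr2 (297 CPM, against 82.3 and 108 CPM) and Vipr2, a receptor of the neuropeptide VIP (51.1 CPM, against 16.6 and 19.0 CPM), were higher than in both. Of the 12 Hedgehog and forkhead genes, 0 were higher and 0 lower than in both. Ptch1, a target of Hedgehog signals, was at 257 CPM, between 84.2 CPM in trophocytes and 472 CPM in SEMFs. Of 11 TGF-beta pathway genes, 0 were higher and 1, Tgfbi, was lower than in both (39.3 CPM, against 98.9 and 261 CPM). Of 9 ion channel genes, 1 was lower than in both and Kcnma1, a potassium channel, was higher (25.9 CPM, against 8.01 and 3.09 CPM). Of 13 basement membrane and integrin genes, 0 passed in the same direction in both. Of 13 interferon and MHC genes, 1 was higher than in trophocytes and 1 lower than in SEMFs, where the shares over all genes were 11.6% and 7.19%.

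Many genes of acute stress, though not all, were lower than in trophocytes. Of 13 immediate early genes, 0 were higher and 9 lower than in trophocytes, with a median log2 ratio of -1.49, and 0 passed in either direction against SEMFs. Fos was at 1447 CPM in CD81- FBs, 4054 CPM in trophocytes and 1257 CPM in SEMFs, and Egr1 was at 826 CPM, 3386 CPM and 625 CPM. Of 10 heat shock genes, 0 were higher and 5 lower than in trophocytes, with Hsp90aa1 at 987 CPM against 2078 CPM. Leaving both lists out of the totals moved the counts to 1545 higher and 850 lower against trophocytes. These genes respond to tissue digestion as well as to signals in the tissue, and which of these applies was not tested.

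The lists of markers of other cell types differed in level. Of the 7 blood endothelial markers, all were below 20 CPM, with a sum of 21.1 CPM against 7891 CPM in BECs. Of the 6 lymphatic markers, the 5 other than Pdpn were below 20 CPM. Pdpn was at 235 CPM in CD81- FBs and 254 CPM in LECs. The 8 SEMF markers summed to 472 CPM, against 4303 CPM in SEMFs, and Foxl1 was at 4.86 CPM against 66.3 CPM. The 8 trophocyte markers summed to 1353 CPM, against 3516 CPM in trophocytes, and Pi16 was at 8.34 CPM against 291 CPM. Of the 6 smooth muscle markers, 3 were at 20 CPM or more, with a sum of 142 CPM against 22180 CPM in SMCs. Glial, mesothelial and epithelial lists summed to 4.86, 0 and 1.94 CPM. Immune transcripts were higher than in both other fibroblast classes for 4 of 4 genes tested, with sums of 99.6, 13.8 and 20.6 CPM in CD81- FBs, trophocytes and SEMFs. Igkc, an antibody chain made by plasma cells, was at 56.0 CPM, with UMIs in 402 of the CD81- FBs and 108 of its 1384 UMIs in 1 cell. Lyz2 and C1qa, genes of macrophages, were at 19.4 CPM and 7.97 CPM, although immune cells had been sorted out. Ptprc, which encodes CD45, was at 0.0809 CPM. The part of these transcripts in the results above was not tested.

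The cells of the type also differed among themselves. In 3463 cells thinned to 3000 UMIs, 67 of 4261 genes with a mean of at least 0.1 UMI had a ratio of variance to mean at least 2 times that of genes of like level. The 12 with the largest excess were Cxcl13, Ccl2, Gm42418, Cxcl9, Cxcl10, Adamdec1, Malat1, Mgp, C3, Acta2, BC028777 and Gsn. Cxcl13 came first, at 17.9 times the trend. It was found in 25.4% of the cells, reached 128 UMIs in 1 cell, and the 174 cells with the most Cxcl13 held 68.2% of its UMIs. Chemokines of inflammation were held by still fewer cells. Those top cells, taken anew for each gene, held 95% of the Ccl2 UMIs, 94.4% of the Cxcl10 UMIs and 100% of the Cxcl9 UMIs. Cxcl9 and Cxcl10, both induced by interferon, were found in 2.02% and 6.15% of the cells, and Ccl2 in 5.95%. The 174 top cells outnumber the cells with Cxcl9, so its share had to be 100%. Ccl2 and Cxcl10 were found in few more cells than that, which left their shares little room to be lower. For Acta2, smooth muscle actin, the top cells held 76.8% of the UMIs, and Acta2 was found in 9.33% of the cells. Adamdec1, Mgp and Gsn were different, since they were found in most cells (91.4%, 77.7% and 99.97%) and varied in amount.

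Adamdec1 varied against a second group of transcripts. Across the thinned cells its highest Pearson correlations, on log values and given as a description, were with Tmem176a (0.54) and Tmem176b (0.49), a pair of related membrane proteins, then Tnc (0.37), Cxcl14 (0.36) and Lpl (0.35). The lowest were with Gsn (-0.49), Lum (-0.41), Cd9 (-0.40), Cd55 (-0.39) and Igfbp6 (-0.39). All points come from 1 library at 1 depth. The correlation with Tmem176a was 0.51 in the cells with only Xist UMIs and 0.55 in those with only Y-linked UMIs, and that with Gsn was -0.43 and -0.55. Stmn2 lay at the other end, with Cd9 (0.36), Gsn (0.34), Timp3 (0.30), Igfbp6 (0.30) and S100a6 (0.29) as its closest genes and Tnc (-0.34) and Ccl11 (-0.30) as the most opposed. Cxcl13 had weaker relations, the closest being C3 (0.28), Frmpd4 (0.26), Mgp (0.25), Dcn (0.23) and Lum (0.23), with Adamdec1 as the most opposed (-0.30). These depended on the cells used, with C3 at 0.16 in the cells with only Xist and 0.42 in those with only Y-linked UMIs, Frmpd4 at 0.14 and 0.27, and Adamdec1 at -0.19 and -0.41.

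The cells were then divided into 4 parts by their thinned Adamdec1 UMIs, at 0 to 3 (962 cells), 4 to 10 (846), 11 to 26 (816) and 27 to 103 (839). These parts are ranges of 1 continuous level, not types, and their median depths before thinning lay between 6730 and 6801 UMIs. From the lowest to the highest part, Tmem176a went from 3.19 to 9.23 UMIs per cell and Cxcl14, a chemokine of subepithelial fibroblasts, from 0.0541 to 1.15. Over the same parts Gsn, an actin-severing protein, went from 50.6 to 23.8 UMIs per cell, Igfbp6 from 1.77 to 0.329, Cd55, a complement inhibitor, from 1.85 to 0.372 and Stmn2 from 0.892 to 0.0524. Sfrp1 and Wnt4 went with Adamdec1, from 1.79 to 4.03 and from 0.384 to 0.847 UMIs per cell. Tcf21 varied little, from 3.43 to 4.21 UMIs per cell. Tmem176a, Cxcl14, Gsn, Igfbp6 and Cd55 had been picked by their correlation with Adamdec1 in these same cells. Their trends restate those correlations and are no separate support for them. The same holds for the trends of Stmn2 and Cxcl13, whose correlations with Adamdec1 in these cells were -0.285 and -0.301.

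Set beside trophocytes at the same depth, the lowest Adamdec1 part was close in some genes and far in others. Gsn was at 50.6 UMIs per cell there and 52.2 in trophocytes, and Mgp at 13.4 and 11.9. Igfbp6 was at 1.77 against 4.14 in trophocytes, and Cd81 at 0.245 against 1.87, with a median of 0 Cd81 UMIs per cell in the lowest part. Stmn2 and Cxcl13 had their highest means in the lowest part (0.892 and 6.09 UMIs per cell) and were near 0 in trophocytes (0.0453 and 0.144). Edil3 was level between the lowest part and the next (1.82 and 1.80 UMIs per cell) and at 0.0416 in trophocytes. Pi16, from the list of trophocyte markers, was at 0.0603 UMIs per cell in the lowest part and 0.834 in trophocytes, of which 31.95% had a Pi16 UMI. The highest part had 1.15 Cxcl14 UMIs per cell, where SEMFs had 1.71. Its Gsn level was 23.8 UMIs per cell, where SEMFs had 2.38.

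**Figure D4:**
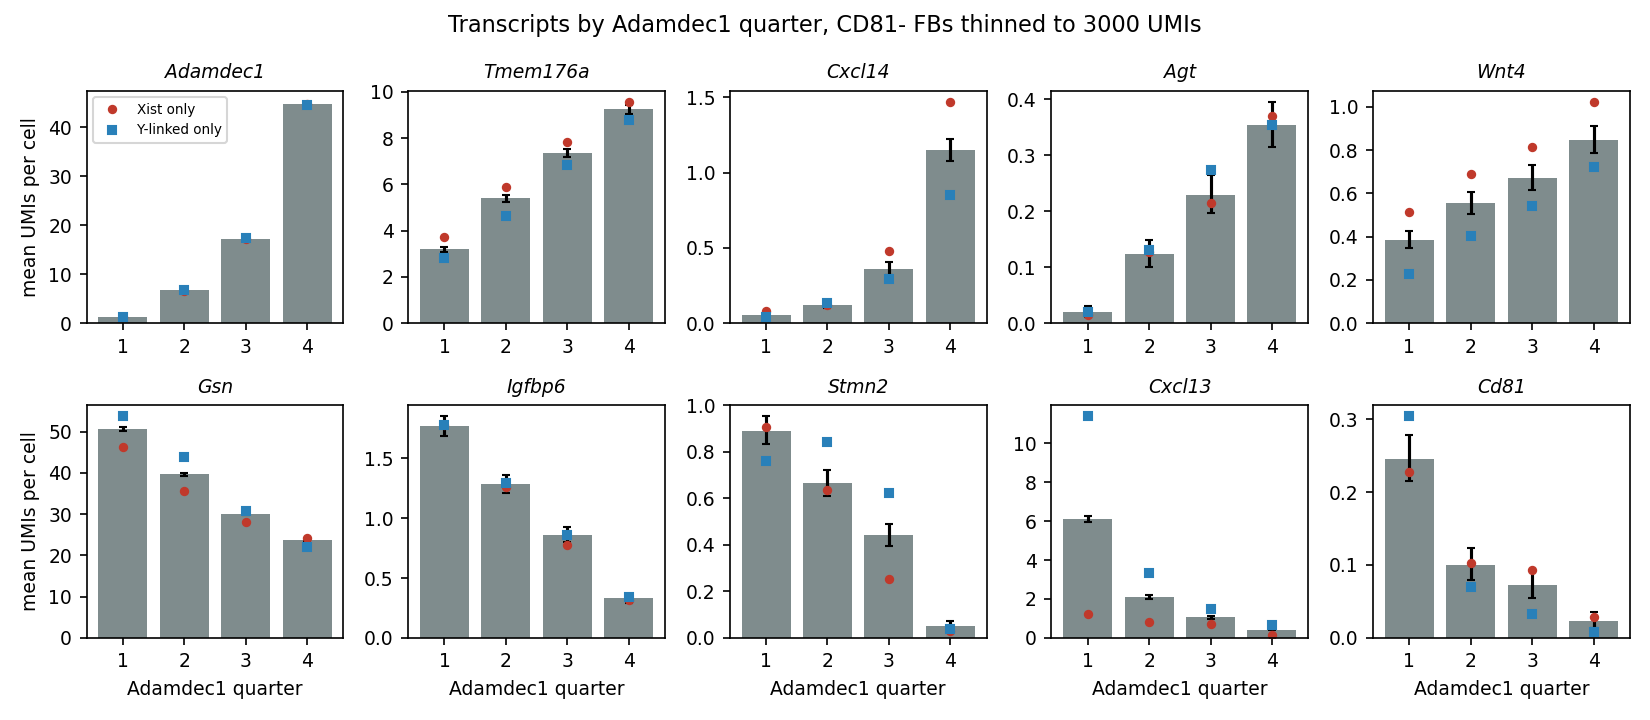
Mean UMIs per cell for 10 genes in 4 parts of the CD81- FBs ordered by Adamdec1 (1 lowest, 4 highest), all cells thinned to 3000 UMIs, with exact Poisson intervals on the bars and the means of cells with only Xist (circles) and only Y-linked UMIs (squares). Tmem176a, Cxcl14, Agt and Wnt4 are higher where Adamdec1 is higher, and Gsn, Igfbp6, Stmn2, Cxcl13 and Cd81 are lower, with the circles and squares far apart for Cxcl13 in the lowest part (1.24 and 11.4). Tmem176a, Cxcl14, Gsn and Igfbp6 were picked by their correlation with Adamdec1 in these same cells. The trends of Stmn2 and Cxcl13 likewise restate their correlations with Adamdec1.

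Some markers were found together and others apart. Hapln1 was found in 28% of the 762 cells with Stmn2 (exact binomial interval 24.8 to 31.3) and in 9.63% of the 2701 cells without it (8.54 to 10.8). Edil3 was found in 77.0% of the 473 cells with Hapln1 and in 57.2% of the 2990 without it. Stmn2 and Cd36 were nearly unrelated, with Cd36 in 7.87% of the cells with Stmn2 and 8.55% of those without. In contrast, Cd36 was found in 1.82% of the 881 cells with Cxcl13 (1.04 to 2.93) and in 10.7% of the 2582 cells without it (9.49 to 11.9). The last contrast was present in cells with only Xist and in cells with only Y-linked UMIs, where the Cd36 shares were 1.87% against 9.54% and 1.44% against 13.5%. A further contrast, picked after its values were seen, lay between Cd36 and Grem1, which is not one of the 7 markers. Grem1 was found in 4.12% of the 291 cells with Cd36 (2.15 to 7.09) and in 41.5% of the 3172 cells without it (39.7 to 43.2). The genes closest to Cd36, also picked after the values were seen, were Agt (0.30), which encodes angiotensinogen, and Rgs10 (0.29). Grem1 and Wnt4 were also opposed, with Wnt4 in 20.5% of the 1327 cells with Grem1 and in 45.5% of the 2136 cells without it.

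The library held cells with different sex-linked transcripts, and the type could be split by them. Of the CD81- FBs, 1615 had only Xist UMIs, 1040 only UMIs of Y-linked genes, 96 both and 880 neither. Of 12756 genes, 127 (0.996%) were higher and 127 (0.996%) lower in the cells with only Y-linked UMIs. These counts include the genes that made the split, with the 4 Y-linked genes among the higher and Xist among the lower. Their direction was fixed by the split. How many animals stand behind each set is not given in the labels, so sex and single animals cannot be told apart. Cxcl13 was at 1446 CPM in the cells with only Y-linked UMIs and at 253 CPM in those with only Xist UMIs, a log2 ratio of 2.51 (2.45 to 2.57). At equal depth 33.8% of the cells with only Y-linked UMIs had Cxcl13 (30.9 to 36.8), against 17.2% (15.3 to 19.1). Cells with at least 20 Cxcl13 UMIs made up 7.60% (6.06 to 9.40) and 0.385% (0.142 to 0.837), and they held 68.6% and 18.9% of the Cxcl13 UMIs of their set. In trophocytes Cxcl13 was at 55.9 and 20.9 CPM in the same sets, and in SEMFs at 94.4 and 66.6 CPM.

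By the naming rule, which leaves out Xist and the Y-linked genes, the 5 highest of the 127 higher genes were Cxcl13, C7, Cdh13, Plcxd3 and Ifi202b. C7, a terminal complement protein, was at 52.4 CPM against 4.64 CPM (log2 ratio 3.5, 3.08 to 3.94). The same gene was at 305 CPM and 29.9 CPM in trophocytes. Cdh13, an adhesion protein anchored by a lipid, was at 257 CPM against 57.4 CPM. Ifi202b, an interferon-inducible gene with close paralogs, had 127 UMIs in the one set and 3 in the other. The 5 lowest of the 127 lower genes by the same rule were Gm47283, Cxcl9, Iigp1, Dhrs3 and Cxcl10. Cxcl9 was at 19.0 CPM against 60.0 CPM in those with only Xist UMIs, Iigp1, an interferon-inducible GTPase, at 51.4 against 137 CPM, and Cxcl10 at 35.4 against 89.0 CPM. Dhrs3, which reduces retinal, was at 30.7 against 82.0 CPM. Among the markers, Edil3 was at 755 against 386 CPM (log2 ratio 0.97), and Adamdec1 was level, at 5586 CPM in both sets.

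**Figure D5:**
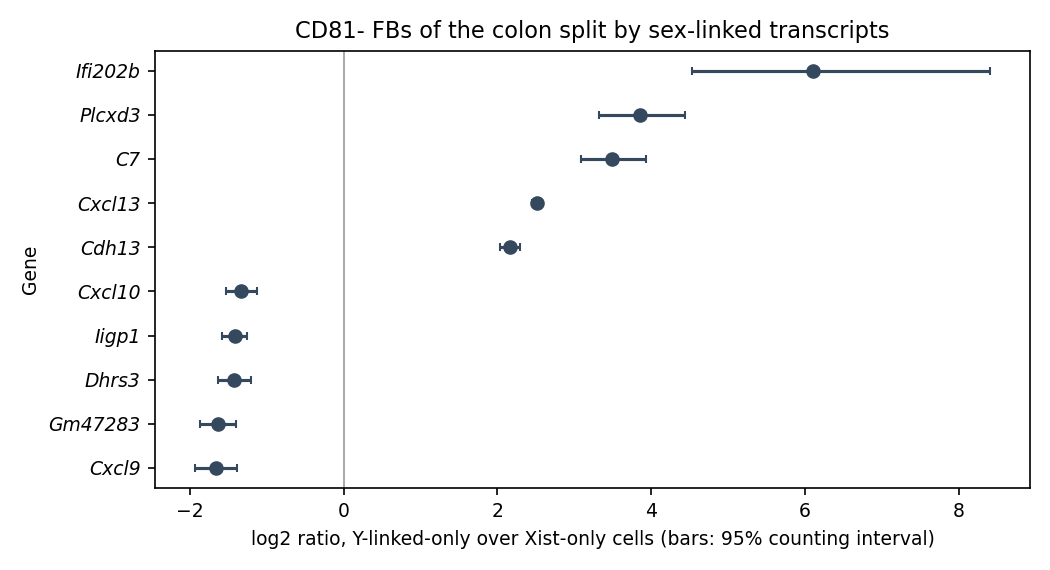
Log2 ratio of levels between the Y-linked-only and the Xist-only sets of CD81- FBs for the 5 highest and 5 lowest genes by the naming rule, with bars for the exact 95% counting interval. The points run from Cxcl9 at -1.66 to Ifi202b at 6.11, and the bar of Ifi202b, which rests on 3 Xist-only UMIs, is the widest.

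The same label was given to 2823 cells of the small intestine. Of 14279 genes listed for both libraries and tested, 1264 (8.85%) were higher and 1676 (11.7%) lower in the colon, so 43.0% of the called genes were higher. With scaling to the median gene, which lay at -0.25 on the log2 scale, that split was 61.8%. Of the 7 colon markers, 5 were higher in the colon, with 1.84 CPM of Hapln1 and 0.843 CPM of Cd36 on the small intestinal side. Adamdec1 (8191 CPM in the small intestine) and Frzb (44.9 CPM) were the exceptions, so the most abundant marker was carried in both tissues. Of the Wnt inhibitors, Sfrp2 (42.7 CPM in the colon) was at 0.149 CPM in its small intestinal counterpart and Sfrp1 (911 CPM) at 1482 CPM. The 5 genes highest in the colon by the naming rule were Cdk8, Gm42418, Cmss1, Lars2 and Frmpd4. The first 4 were high in every compared colon type, with Cdk8 between 4517 and 7386 CPM. The 5 highest in the small intestine were Hmcn1, Hpse2, Sntg1, Rgs5 and Lrat. Lrat, which stores vitamin A as retinyl ester, stood at 3.56 CPM, against 239 CPM in its small intestinal counterpart. The 4 Y-linked genes tested were all lower in the colon, with a median log2 ratio of -1.76, so the mix of sexes may differ between the libraries. Tissue, digestion time, library and the sex and identity of the animals cannot be told apart here.

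The 10 most abundant nuclear genes of the type were Gm42418, Malat1, Gsn, Tpt1, Cmss1, Dcn, Cdk8, Adamdec1, Eef1a1 and Fth1. Gm42418, which overlaps ribosomal RNA, held 86617 CPM, within the range of 77002 to 102540 CPM over the compared colon types. Gsn was at 11926 CPM in CD81- FBs, 17124 CPM in trophocytes and 817 CPM in SEMFs. Across 11145 genes, which are not independent replicates, the Spearman correlation of levels in CD81- FBs was 0.917 with trophocytes and 0.90 with SEMFs, and 0.732 with LECs.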

How the data were processed

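Stromal cells of 1 colon and 1 small intestinal library were analysed. Reads were processed with Cell Ranger 7.1.0 and Seurat 4 on build mm10, per the submitters' processing notes. The authors deposited UMI counts per gene and cell, natural log values and cell labels. Checked over all colon cells, each deposited natural log value equalled the natural log of 1 plus UMIs times 10000 over the cell's UMIs.

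Counts were summed per label (Python 3.11.15, scipy 1.17.1) and given as CPM with exact Poisson intervals. Ratios carry exact conditional binomial intervals, shares exact Clopper-Pearson intervals, all at 95%. A count of 0 was set to a floor of 3 counts. PCR and sampling beyond UMIs are not covered. Genes entered a comparison with at least 30 UMIs in the pair. Arterial, venous and capillary endothelial labels were pooled as BECs. Scrublet in scanpy 1.11.5 marked 0 of 6018 colon cells, so it was not used to remove doublets. Removal of doublets by the authors is not given in the sources used here. The ratio intervals were tested only on simulated Poisson counts, which follow the model that the intervals assume. That test cannot show how they behave when cells vary more, as for Cxcl13 (variance over mean 31.8 in thinned CD81- FBs).

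Genes were named by rank: the 15 most above every other type (at least 100 UMIs and 10% of cells), the 10 most below both fibroblast types, the 10 most abundant, the 12 most variable, the 5 at each end for the sex-linked and tissue contrasts, and members of 41 lists at 20 CPM or more that passed against both fibroblast types in 1 direction, with further list members by level. Mitochondrial, ribosomal protein, haemoglobin and immunoglobulin genes were left out of rankings, as were Xist, Tsix, Ddx3y, Eif2s3y, Kdm5d and Uty. Genes of the sex chromosomes were not left out as a class. The limit of 20 CPM applied to the level in CD81- FBs, so list members low in this type were counted but not named by this rule. Members, markers and lists were chosen with earlier results of these data known.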

Additional observations from a re-analysis of the deposited data

Results flagged for a closer look

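For 6 genes the CD81- FBs lay above the trophocytes in 1 tissue and below them in the other, each by at least 1 on the log2 scale. Over all genes 54 of 12980 did so, and the 6 are those in which the smaller of the 2 ratios was largest, or that were named by rank. The difference between tissues was not tested, since each tissue had 1 library. Stmn2 had a log2 ratio of CD81- FBs to trophocytes of 3.62 in the colon (3.33 to 3.93) and -5.63 in the small intestine (-10.97 to -3.07), where the CD81- FBs had 1 UMI. Frmpd4 had 4.07 in the colon and -3.42 in the small intestine, with 270 CPM and 1.64 CPM in the CD81- FBs. Rbp4, a carrier of retinol, had 1.505 and -1.97. Limch1 went the other way, with -3.30 in the colon and 1.82 in the small intestine. Fibin had -1.59 and 3.54. Hhip, an inhibitor of Hedgehog ligands, had -1.80 and 1.77, with 27.5 CPM in colon and 77.4 CPM in small intestinal CD81- FBs.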

How the results depend on the processing

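The share of CD81- FBs lay between 59.4% and 60.0% under its 3 alternatives. Of the 55 ratios to trophocytes or SEMFs past 1 on the log2 scale among markers and genes named by rank, 0 of 550 values under alternatives changed sign. These ratios were kept for their size, which left little room for a change of sign, so the count is weak support. With means of natural log values some fell below 1, such as Cd36 (6.01 to 0.26) and Hapln1 (5.28 to 0.39) to trophocytes. Others stayed past 1, such as Edil3 to trophocytes (4.69 to 1.85). The smaller ratio of Adamdec1 to SEMFs (0.30) was -0.11 with means of natural log values. For the called ratios, outside the natural log means the largest move was 1.45. Counts of genes depended on the filter and the scale. Means of the natural log values, which compress ratios, left 8 genes above every other type, 47 higher and 48 lower than trophocytes, and 61 higher and 67 lower than SEMFs. With no filter on low counts these were 228 above every type, 1360 lower than trophocytes, 1491 lower than SEMFs, and 627 higher and 578 lower in cells with only Y-linked UMIs. With at least 100 UMIs there were 967 higher and 540 lower than trophocytes, 880 higher than SEMFs, 788 higher than in the small intestine, and 40 higher and 34 lower in cells with only Y-linked UMIs. Thinning to 1500 UMIs left 544 genes lower than trophocytes and 24 genes of high variance, and 5000 UMIs gave 146, of 2175 and 6183 genes that reached the mean, and the cause was not tested. Median scaling gave 1029 genes lower than in the small intestine. Assigning cells by at least 3 Xist or 2 Y-linked UMIs gave 202 lower genes, and the cause was not tested. The sets of 12 most variable genes shared 10 to 11 genes with the main one. Leaving 5 genes of very uneven level between the libraries, or the stress genes, out of the totals was chosen after seeing the data. No paired analysis was possible because each tissue had 1 library. Depth limits BECs most, with 269665 UMIs.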

Other observations

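Some listed genes separated the CD81- FBs from 1 other fibroblast class, and they were picked after their values were seen. Ebf1, a transcription factor, was at 22.9 CPM in CD81- FBs and 1805 CPM in trophocytes (log2 ratio -6.30), and SEMFs were at 13.0 CPM. Slit3, a guidance ligand, was at 268 CPM against 1447 CPM in trophocytes, while Robo2, a receptor of Slit proteins, was at 635 CPM against 163 CPM. Ednrb, an endothelin receptor, was at 3.32 CPM in CD81- FBs and 225 CPM in SEMFs.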
